A study of Homo sapiens with 3 samples.

Results

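The levels of 10 extracellular matrix genes, of 60554 genes in the table, were followed in 3 libraries of KYSE30, a cancer cell line of the squamous epithelium of the human esophagus. They encode matricellular and adhesive proteins (TNC, THBS1, SPARC, FN1, TGFBI), a fibulin and a fibrillin (FBLN1, FBN2), and enzymes that crosslink collagen and elastin (LOX, LOXL2, LOXL4). The members were taken by symbol, and each symbol matched 1 gene identifier. The set was chosen by measured values of these same libraries, among them the lower TNC level with both shRNAs. The ratios to the control are therefore given as a description, and no p-value is given for a member.

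Each library is 1 stable line, with no replicate library. The control line (title k30-PlkoB, genotype vector) carried the pLKO.1-blast vector, for which the treatment text describes a scrambled shRNA without a target. The lines k30-shSNORD12B-1 and k30-shSNORD12B-2 (genotype SNORD12B knockdown) carried different shRNAs against SNORD12B, which belongs to the box C/D class of small nucleolar RNAs that guide ribosomal RNA methylation. All 3 were exposed to virus for 24 hours and kept under blasticidin (5 ug/mL) over 2 weeks, in medium with 10% serum. The labels do not say whether a line came from 1 clone or from a pool of cells. Where 3 values stand in a row, they follow the order control, label shRNA 1, label shRNA 2.

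Matricellular proteins are secreted proteins that sit in the matrix and change how cells attach to it, rather than bearing load as fibrillar collagens do. Fibronectin and tenascin-C are recognised by integrins, fibulins and fibrillins belong to elastic fibres and basement membranes, and lysyl oxidases oxidise lysines of collagen and elastin so that the chains crosslink. In squamous carcinomas these proteins come from stromal fibroblasts as well as from the tumour cells. RNA of a cultured line shows what that line expresses in culture, not its share in a tumour.

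Total counts were between 15146805 and 17336936 per library. SNORD12B itself had 7, 15 and 1 counts, so the first shRNA library goes against its label as far as so few reads of a short RNA show. Epithelial markers were strongly expressed: EPCAM stood at 189 to 214 CPM (scaled counts relative to library size, by the trimmed mean of M-values) and KRT8 at 4335 to 4366 CPM. KRT5, a defining basal keratin, had only 1, 3 and 2 counts. Of 14 fibroblast markers, 6 had no count in any library (COL1A2, DCN, DPT, LUM, PDGFRA and THY1), where 0 counts allow up to 0.197 CPM. The summed fibroblast markers stood at 32.9, 23 and 35.4 CPM, most of it COL1A1 and S100A4. Of 9 endothelial and blood cell markers, HBB and KDR had no count, PECAM1 and PTPRC had 1 count each over all libraries, and the list summed to 5.66, 2.17 and 7.88 CPM, of which CDH5 gave 2.6, 0.855 and 5.23 CPM. The 15 squamous epithelial markers summed to 10290, 8985 and 11150 CPM, most of it KRT8, KRT18 and KRT19. The others reached from CDH1, at 633, 449 and 678 CPM, down to PKP1 (11, 2 and 12 counts) and KRT5. KRT14 stood at 19, 11.5 and 10.8 CPM. Of the 14 tested, 8 lay below the control with both shRNAs, beside 27 percent of all tested genes, and 1 above, beside 28.2 percent. The 8 reached from KRT8, at log2 ratios of -0.01 and -0.008, to SOX2, with 104, 12.2 and 38.9 CPM. The part of these marker differences in the results for the 10 genes was not tested. In edgeR's quasi-likelihood test of both shRNA lines against the control, 0 of 17801 tested genes passed in either direction (0 percent). At an unadjusted p under 0.05, 73 genes (0.41 percent) were higher and 164 (0.921 percent) lower. DESeq2 called 0 higher and 14 lower, and edgeR's likelihood ratio test 2 and 36. Of the 10 genes, 9 passed the filter on low counts and 0 of these were called by the quasi-likelihood test.

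To show what precedes the RefSeq start sites, the stretches before those of TNC, FBLN1, THBS1 and FN1 are printed 5′ to 3′ on the gene's strand. By log2 ratios with a prior count of 2, TNC and FBLN1 were the members at least 2-fold below the control with both shRNAs. THBS1 and FN1 stood at 351 and 62.8 CPM in the control, and their shRNA libraries differed from each other. The counting interval between the shRNA libraries also excluded a ratio of 1 for TGFBI, LOXL2 and LOX, which are not printed. Capitals mark matches to the motifs searched, and bases that the counted annotation places in an exon are left out. The sequences are from RefSeq on GRCh38.p14, at chr9:115118258-115118407 (minus strand) for TNC, chr22:45502633-45502831 (plus) for FBLN1, chr15:39580829-39581078 (plus) for THBS1 and chr2:215436173-215436318 (minus) for FN1. The RefSeq start of FBLN1 lies downstream of the first start in the counted annotation, so its stretch is inside the gene as counted, between annotated exons.
TNC: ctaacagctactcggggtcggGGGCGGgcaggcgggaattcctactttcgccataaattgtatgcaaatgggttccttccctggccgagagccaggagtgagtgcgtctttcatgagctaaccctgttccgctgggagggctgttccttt
FBLN1: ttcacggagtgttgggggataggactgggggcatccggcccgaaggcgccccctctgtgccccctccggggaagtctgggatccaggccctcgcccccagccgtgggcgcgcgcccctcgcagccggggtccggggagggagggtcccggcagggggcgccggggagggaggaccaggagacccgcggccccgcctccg
THBS1: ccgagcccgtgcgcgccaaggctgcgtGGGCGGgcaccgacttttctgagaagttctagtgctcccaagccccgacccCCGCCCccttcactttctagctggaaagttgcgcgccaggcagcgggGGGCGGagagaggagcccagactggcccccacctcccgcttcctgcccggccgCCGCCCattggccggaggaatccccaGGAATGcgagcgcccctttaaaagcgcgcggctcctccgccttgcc
FN1: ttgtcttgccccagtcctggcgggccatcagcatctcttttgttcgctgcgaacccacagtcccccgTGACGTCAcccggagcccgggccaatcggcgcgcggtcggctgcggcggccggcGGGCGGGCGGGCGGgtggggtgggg

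Windows of 250 bases before the RefSeq start were available for 9 of the 10 genes and were searched on both strands. TNC held 1 GC box (GGGCGG), 229 bases before its start, and TATAA 27 bases before it, in the part not printed. FN1 held TATAA 28 bases before its start, in the part not printed, the CRE octamer TGACGTCA 183 bases before it and 6 GC boxes, which partly overlap each other. FBLN1 held a single GC box 36 bases before its start, in the part not printed, and none of the other motifs searched. THBS1 held GGAATG, the core letters of the TEAD motif, 46 bases before its start, and 4 GC boxes. SPARC held the same TEAD letters on the opposite strand, 17 bases before its start. Neither the AP-1 letters TGANTCA nor an NF-kB decamer occurred in these windows. Of 35116 windows of this length in the promoter table, 42.6 percent held GGGCGG, 18.9 percent TATAA, 11.9 percent GGAATG, 6.57 percent TGANTCA, 1.65 percent TGACGTCA and 0.527 percent the NF-kB decamer. TNC and FBLN1 thus shared the GC box, a motif of 42.6 percent of all windows, and differed in TATAA.

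Of the 10 genes, 2 lay at least 2-fold below the control in both shRNA libraries, TNC and FBLN1, where 1.19 percent of all tested genes did. None lay at least 2-fold above it in both, against 0.977 percent of tested genes. Below the control in both at any size were 4 of 10 (TNC, FBLN1, SPARC and FN1), beside 27 percent of tested genes. FBN2 and LOXL4 lay above it in both, beside 28.2 percent of tested genes. The remaining 4, THBS1, TGFBI, LOXL2 and LOX, lay on opposite sides of the control, higher with the label shRNA 1 and lower with the label shRNA 2, beside 23.3 percent of tested genes. Since the genes were chosen on these ratios, nothing is read from these counts. Counts at 2-fold use log2 ratios with a prior count of 2 throughout. Both ratios of a gene are taken to the same control library. In RNA from a whole culture, fewer cells that express a gene and less RNA per cell cannot be told apart.

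**Figure D1:**
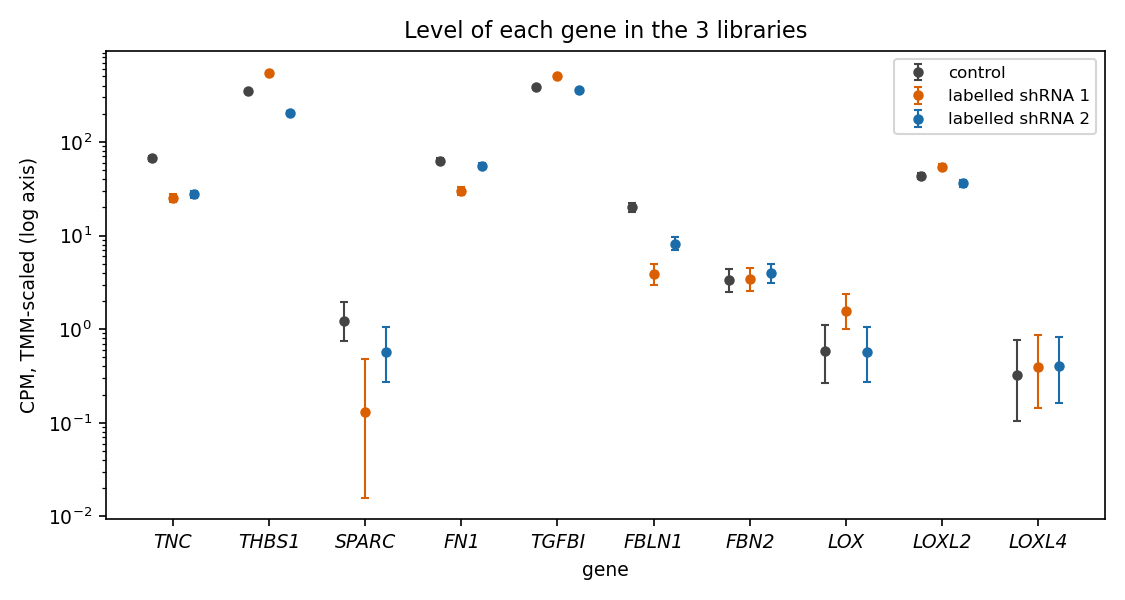
Scaled CPM (log axis) of the 10 genes in the control library and the libraries labelled shRNA 1 and shRNA 2, 1 point per library, with bars for the 95% exact Poisson interval of the count. TNC and FBLN1 stand highest in the control, THBS1 and TGFBI highest in the library labelled shRNA 1, and SPARC, LOX and LOXL4 lie at 1.58 CPM or lower with wide bars.

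Tenascin-C, encoded by TNC, is a large multimeric matricellular protein that is scarce in most resting adult epithelia and abundant in wounds and tumour margins. TNC (ENSG00000041982.15, chromosome 9, 115019578 to 115118257, minus strand, hg38) had 1025 counts in the control, then 383 and 480 with the labels shRNA 1 and shRNA 2. These are 66.7 CPM (95% exact Poisson interval 62.7 to 70.9), 25.2 CPM (22.7 to 27.8) and 27.6 CPM (25.2 to 30.2). The shRNA libraries lay close to each other and well below the control, and their intervals did not overlap the control's. The ratio to the control was 0.377 (95% exact interval 0.335 to 0.425) for the label shRNA 1 and 0.414 (0.37 to 0.461) for the label shRNA 2. Between the shRNA libraries the ratio was 1.10 (0.956 to 1.26), an interval that holds 1. All these intervals cover counting error only and not the spread between cultures. No exon of another gene overlaps the exons of TNC on either strand.

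Thrombospondin-1, encoded by THBS1, is a matricellular glycoprotein known as an inhibitor of angiogenesis and an activator of latent TGF-beta. THBS1 (ENSG00000137801.10, chromosome 15, 39581079 to 39599466, plus strand) stood at 351 CPM in the control (5388 counts), 545 CPM with the label shRNA 1 (8293 counts) and 204 CPM with the label shRNA 2 (3555 counts). The control lay between the shRNA libraries, and the library labelled shRNA 2 was lowest. The ratio to the control was 1.56 (1.5 to 1.61) for the label shRNA 1 and 0.583 (0.558 to 0.608) for the label shRNA 2. The shRNA libraries differed from each other by more than either did from the control, with a ratio of 0.375 (0.36 to 0.39) of the second to the first. Exons of THBS1-AS1 cover 7.56% of the exonic bases on the opposite strand. That antisense gene had 267, 434 and 207 counts, the same order as THBS1. Counting used the strand option 1, but whether the library kit marked strand is not stated in these sources. Reads of THBS1 and THBS1-AS1 may therefore not be separable.

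SPARC, or osteonectin, is a collagen-binding matricellular protein made in bulk by fibroblasts and bone cells. SPARC (ENSG00000113140.10, chromosome 5, 151661096 to 151687165, minus strand) had only 19 counts in the control, then 2 and 10 with the labels shRNA 1 and shRNA 2. Its level was 1.24 CPM (0.745 to 1.93), 0.132 CPM (0.0159 to 0.475) and 0.575 CPM (0.276 to 1.06). The control was highest, but its interval overlapped that of the library labelled shRNA 2. The ratio to the control was 0.106 (0.012 to 0.441) for the label shRNA 1 and 0.465 (0.193 to 1.05) for the label shRNA 2, the latter holding 1. The ratio of 0.465 in the library labelled shRNA 2 is past 2-fold. The log2 ratio of -0.96, taken with a prior count of 2, fell just short of the 2-fold limit. SPARC reached 10 counts in 2 of the 3 libraries. Relative to library size, it passed the filter on low counts only through the control, where it is highest.

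FN1 encodes fibronectin, the adhesive glycoprotein that cells assemble into fibrils through integrin alpha5 beta1. FN1 (ENSG00000115414.18, chromosome 2, 215360440 to 215436172, minus strand) had 965, 456 and 971 counts. That is 62.8 CPM (58.9 to 66.9), 30 CPM (27.3 to 32.9) and 55.8 CPM (52.4 to 59.5). The library labelled shRNA 1 stood apart, and the other two overlapped narrowly in their intervals. The ratio to the control was 0.477 (0.426 to 0.534) for the label shRNA 1, just past 2-fold at a log2 ratio of -1.06, and 0.889 (0.812 to 0.973) for the label shRNA 2. The second shRNA library lay 1.86-fold (1.66 to 2.09) above the first.

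TGFBI encodes a secreted fasciclin-domain protein that binds integrins and collagens and was named for its induction by TGF-beta. TGFBI (ENSG00000120708.16, chromosome 5, 136028895 to 136063818, plus strand) stood at 388 CPM in the control (5965 counts), 511 CPM with the label shRNA 1 (7773 counts) and 360 CPM with the label shRNA 2 (6260 counts). The library labelled shRNA 1 was highest and the other two lay near each other. The ratios to the control were 1.32 (1.27 to 1.36) and 0.927 (0.894 to 0.961). At this depth even this second ratio lies outside counting error, which says nothing of the spread between cultures.

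FBLN1 encodes fibulin-1, a calcium-binding glycoprotein that associates with fibronectin and elastic fibres. FBLN1 (ENSG00000077942.18, chromosome 22, 45502238 to 45601135, plus strand) had 309 counts in the control, then 59 and 143 with the labels shRNA 1 and shRNA 2. Its level was 20.1 CPM (17.9 to 22.5), 3.88 CPM (2.95 to 5) and 8.22 CPM (6.93 to 9.69). The 3 intervals did not overlap, with the control highest and the library labelled shRNA 1 lowest. The ratio to the control was 0.193 (0.143 to 0.256) for the label shRNA 1 and 0.409 (0.333 to 0.5) for the label shRNA 2. The second shRNA library stood 2.12-fold (1.55 to 2.92) above the first, so FBLN1 was below the control in both but not to the same extent. TNC, in contrast, had an interval of the same ratio that held 1.

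FBN2 encodes fibrillin-2, a microfibril protein best known from developing tissues. FBN2 (ENSG00000138829.10, chromosome 5, 128257909 to 128659185, minus strand) stood at 3.32 CPM in the control (51 counts), 3.42 CPM with the label shRNA 1 (52 counts) and 3.97 CPM with the label shRNA 2 (69 counts). The 3 libraries overlapped in their intervals. The ratios to the control were 1.03 (0.686 to 1.55) and 1.20 (0.82 to 1.75). For the library labelled shRNA 2, the counts are thus compatible with ratios from 0.82 to 1.75.

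Among the crosslinking enzymes LOXL2 stood highest per exonic length, at 7.57 CPM per kilobase in the control against 0.107 for LOX and 0.0891 for LOXL4. LOXL2 encodes a lysyl oxidase-like enzyme with scavenger receptor domains, secreted by many carcinomas. LOXL2 (ENSG00000134013.15, chromosome 8, 23297189 to 23425328, minus strand) stood at 43.2 CPM in the control (664 counts), 54.4 CPM with the label shRNA 1 (828 counts) and 36.1 CPM with the label shRNA 2 (628 counts). The control lay between the shRNA libraries. The ratios to the control were 1.26 (1.14 to 1.40) and 0.835 (0.748 to 0.933). On the opposite strand LOXL2-AS1 shares 3.12% of the exonic bases of LOXL2, and on the same strand ENTPD4 shares 2.1%.

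LOX encodes lysyl oxidase, the founding enzyme of the family. LOX (ENSG00000113083.12, chromosome 5, 122063195 to 122078285, minus strand) had 9 counts in the control, then 24 and 10 with the labels shRNA 1 and shRNA 2, or 0.586, 1.58 and 0.575 CPM. Only the library labelled shRNA 1 stood higher, at 2.69 times the control (1.21 to 6.59), and the other shRNA library was at 0.981 times the control (0.358 to 2.73). On the opposite strand SRFBP1 shares 2.52% of the exonic bases of LOX, and it had 158, 249 and 147 counts, again highest with the label shRNA 1. The part of SRFBP1 reads in the count of LOX, made with the same strand option, was not tested. LOX passed the filter on low counts only through the library labelled shRNA 1, where it is highest. LOXL4 encodes another lysyl oxidase-like enzyme. LOXL4 (ENSG00000138131.3, chromosome 10, 98247690 to 98268250, minus strand) had 5, 6 and 7 counts and did not pass the filter. Its ratios to the control were 1.21 (0.308 to 5.02) and 1.24 (0.338 to 4.94), so a difference was not detectable at this depth.

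**Figure D2:**
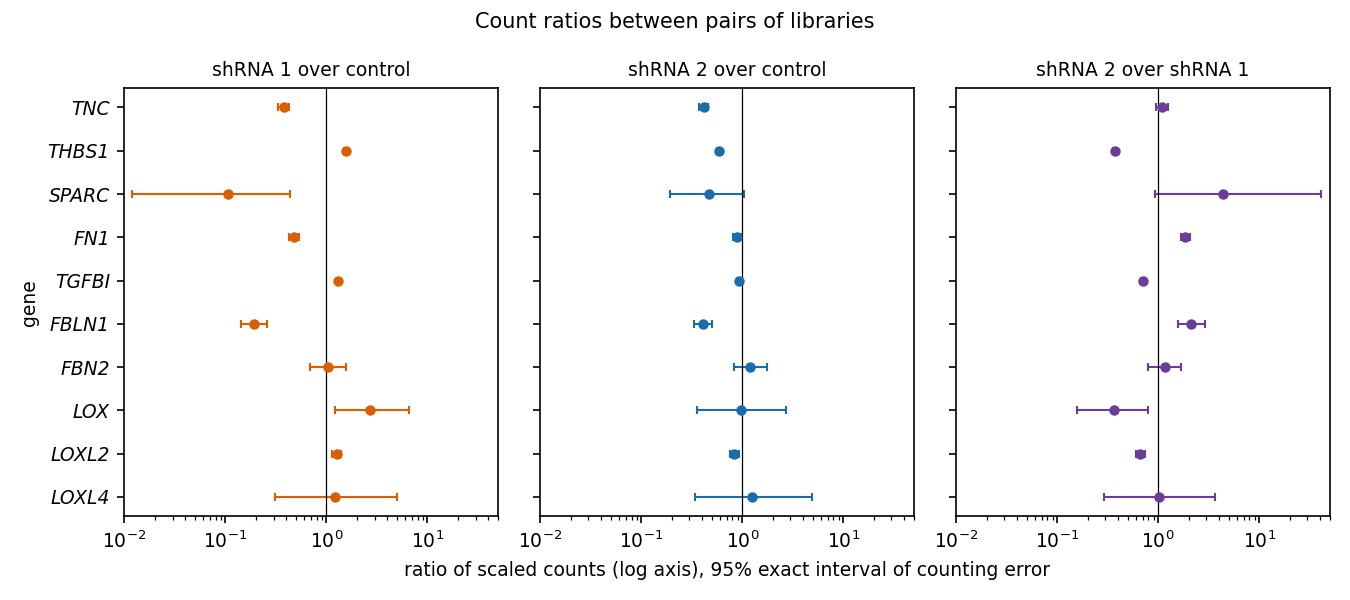
Ratio of scaled counts (log axis) for each of the 10 genes in 3 pairs of libraries, with the 95% exact interval of counting error; the vertical line is a ratio of 1. TNC lies below 1 in both ratios to the control and holds 1 between the shRNA libraries, while THBS1 lies on opposite sides of 1.

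The counting interval of the ratio to the control excluded 1 for 8 of the 10 genes with the label shRNA 1, beside 49.8 percent of tested genes, and for 6 of 10 with the label shRNA 2, beside 47.5 percent. Between the shRNA libraries it did so for 6 of 10, beside 56.5 percent of tested genes. At this depth many genes lie outside counting error, and nothing particular to the 10 genes is read from these counts. At least 2-fold below the control with the label shRNA 1 were TNC, FBLN1, SPARC and FN1 (4 of 10, where 5.58 percent of tested genes were), and LOX was at least 2-fold above it (1 of 10, against 3.74 percent). With the label shRNA 2 these were TNC and FBLN1 (2 of 10, against 3.46 percent) and none above (against 2.98 percent). Between the shRNA libraries, LOX and THBS1 were at least 2-fold lower with the second (5.54 percent of tested genes), and FBLN1 and SPARC at least 2-fold higher (6.61 percent). These differences have no replicate culture to be set against. SPARC passed the filter on low counts only through the control, and LOX only through the library labelled shRNA 1. Nothing is read from their place in these counts.

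**Figure D3:**
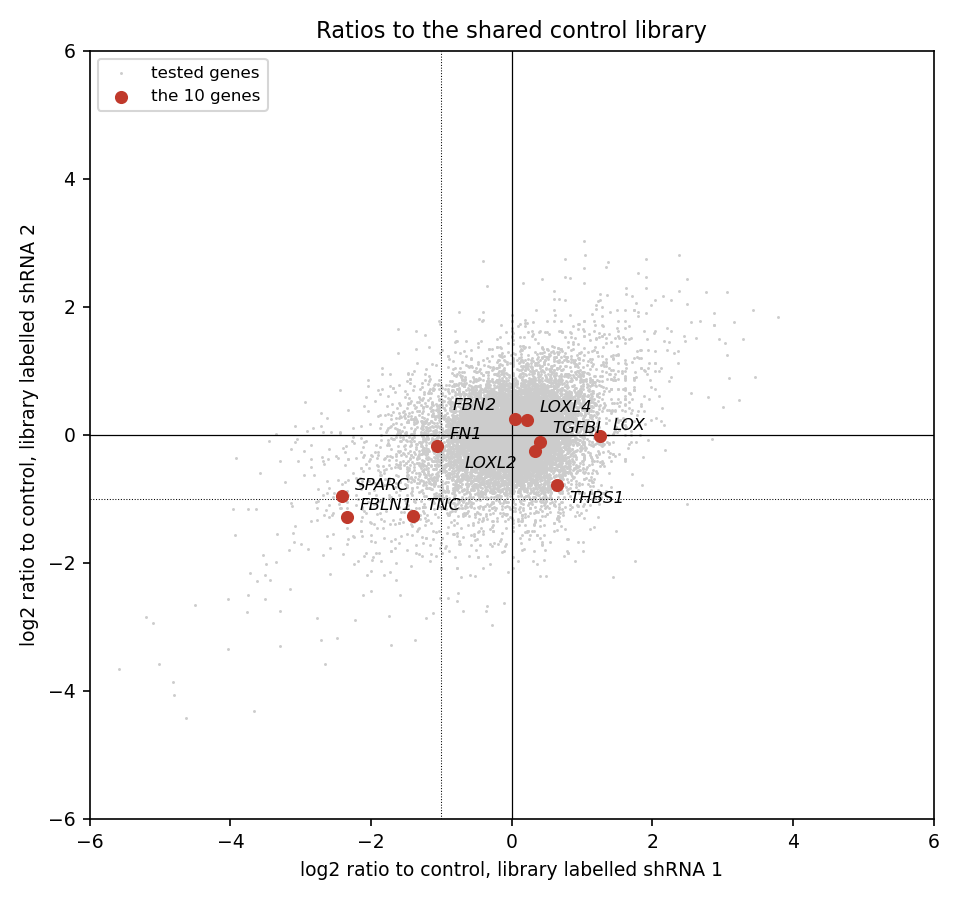
Log2 ratio to the control in the library labelled shRNA 1 (horizontal) against the library labelled shRNA 2 (vertical); grey points are the 17801 tested genes, red points the 10 genes, and dotted lines mark 2-fold below the control. Both axes share the control library. TNC and FBLN1 lie beyond both dotted lines, SPARC just above the horizontal one, and THBS1 to the lower right.

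Between genes, levels were compared as CPM per kilobase of exonic length, where the length is the union of all annotated exons and so tends to understate genes with many isoforms. TGFBI led in the control with 49.7 CPM per kilobase, followed by THBS1 with 38.3, LOXL2 with 7.57, TNC with 6.93, FN1 with 3.63 and FBLN1 with 2.76. SPARC, FBN2, LOX and LOXL4 lay between 0.0891 and 0.256 CPM per kilobase. The counting intervals of LOXL2 and TNC overlapped in the control, as did those of each neighbouring pair among the lowest 4 genes. TGFBI and THBS1 held the first 2 ranks in every library. TNC was the fourth in the control and with the label shRNA 1, at 2.61 CPM per kilobase. With the label shRNA 2 it was the fifth, at 2.86 CPM per kilobase, where its interval overlapped that of FN1 at 3.22.

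The summed counts of the 10 genes were therefore set by TGFBI and THBS1, which gave 78.8% of them in the control, then 89.9% and 80.9% with the labels shRNA 1 and shRNA 2. The sum stood at 937 CPM (922 to 953), 1175 CPM (1158 to 1193) and 698 CPM (685 to 710.1). Leaving TGFBI and THBS1 out turned the order for the library labelled shRNA 1: the other 8 genes summed to 198 CPM in the control, 119 CPM with the label shRNA 1 and 133 CPM with the label shRNA 2. Both shRNA libraries were thus below the control for the sum of these 8 genes, of which TNC gave 66.7, 25.2 and 27.6 CPM. LOXL2 gave 43.2, 54.4 and 36.1 CPM, with the control between the shRNA libraries. Since the genes were chosen on such ratios, nothing is read from this sum.

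**Figure D4:**
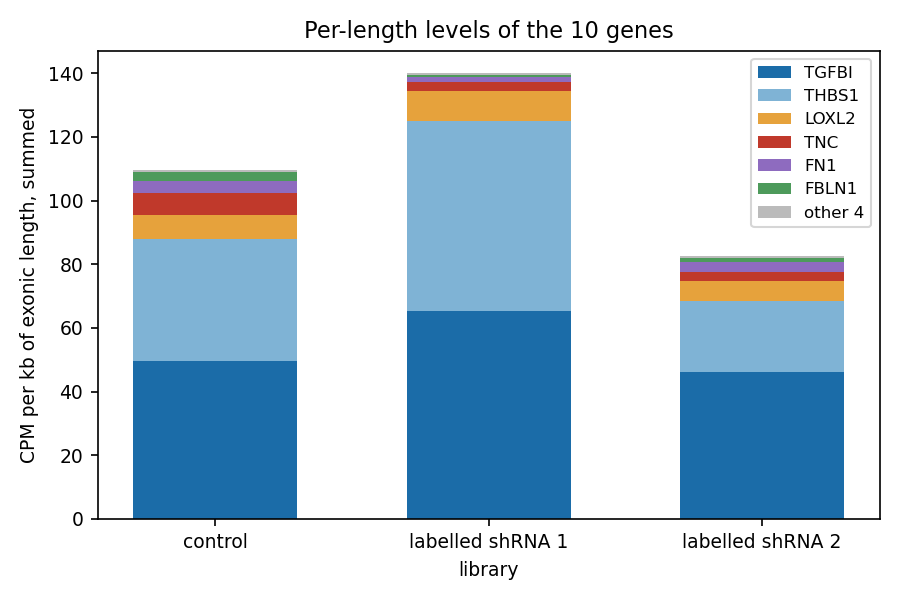
Stacked CPM per kilobase of exonic length of the 10 genes in each library, with 1 library per bar and no replicates. The bars reach 109.6 in the control, then 140.1 and 82.6 with the labels shRNA 1 and shRNA 2, and TGFBI and THBS1 make up most of each.

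Related genes from fixed lists were counted the same way, and 0 genes of any list passed edgeR's quasi-likelihood test in either direction. Of 23 other matricellular genes 15 were tested, with 6 lower than the control under both labels and 3 higher (SPOCK1, THBS2 and TNXB). Of all tested genes, 27 percent lay below it in both and 28.2 percent above. Of the 9 tested members, chosen on these ratios, 4 lay below and 1 above. At least 2-fold below the control with both labels were 2 of the 15, CCN2 and SPP1 (21, 5 and 6 counts), beside 1.19 percent of all tested genes. At least 2-fold above it with both was 1, THBS2 (13, 29 and 34 counts), beside 0.977 percent. Among the 9 tested members these were 2 and 0. SPP1 passed the filter on low counts only through the control, where it is highest, so nothing is read from its place here. The median log2 ratio of these 15 was -0.55 with the first shRNA label and 0.01 with the second, against 0.04 and -0.26 for the 9 members and 0.01 and 0 for all tested genes. CCN2, which encodes connective tissue growth factor, stood at 149, 68.7 and 21.5 CPM. CCN1, its close relative, stood at 497, 556 and 221 CPM, so the control lay between the shRNA libraries, as for THBS1. SPOCK1, a testican proteoglycan related to SPARC, stood at 205, 315 and 288 CPM, with ratios of 1.54 (1.47 to 1.61) and 1.41 (1.35 to 1.47). SPARC itself lay on the other side of the control. SMOC2, another SPARC relative, stood at 8.4, 3.42 and 7.99 CPM.

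Of 27 other genes linked to crosslinking or collagen modification 22 were tested. Of these, 8 were lower than the control under both labels and 3 higher (BMP1, P3H1 and PCOLCE), beside 27 and 28.2 percent of all tested genes. At least 2-fold from it in both were 0, beside 1.19 percent below and 0.977 percent above. The medians were -0.02 and -0.16. TGM1, the transglutaminase of the cornified envelope, stood at 9.5, 3.42 and 7.36 CPM. PPIB, a prolyl isomerase of the endoplasmic reticulum, stood at 316, 262 and 258 CPM. BMP1, a protease that matures procollagen and lysyl oxidase, stood at 72.6, 85.3 and 90.8 CPM, and P4HA1, a subunit of prolyl 4-hydroxylase, at 43.9, 38.9 and 35.6 CPM.

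Of 24 other microfibril and elastic fibre genes 13 were tested, with 4 lower than the control under both labels (FBN1, EFEMP1, EFEMP2 and ADAMTSL4). Higher under both were 5 (LTBP2, LTBP4, MFAP3, MFAP4 and EMILIN3). EMILIN3 (8, 18 and 14 counts) passed the filter on low counts only through the shRNA libraries. Of all tested genes 27 percent were lower and 28.2 percent higher. The medians of the list were -0.31 and 0.13. FBN1, which encodes fibrillin-1, stood at 8.14, 4.47 and 4.94 CPM, with ratios of 0.55 (0.403 to 0.744) and 0.608 (0.456 to 0.806). FBN2, the member of the same family, had ratios that held 1. LTBP1, a latent TGF-beta binding protein, stood at 24.9, 12.5 and 25.1 CPM, so that only the library labelled shRNA 1 was lower. LTBP4 stood at 2.34, 2.76 and 5.06 CPM and ADAMTSL4, a microfibril-associated protein, at 11, 7.63 and 9.03 CPM.

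Of 20 receptors of these proteins 15 were tested, with 5 lower than the control under both labels (ITGB6, SDC4, CD47, STAB1 and PTPRZ1). Higher under both were 4 (ITGA2, ITGA5, ITGAV and ITGB1). PTPRZ1 (13, 7 and 10 counts) passed the filter on low counts only through the control. Of all tested genes 27 percent were lower and 28.2 percent higher. The medians of the list were -0.25 and 0.01. ITGAV, a subunit of receptors for TNC, FN1 and TGFBI, stood at 341, 429 and 417 CPM. ITGA5, the alpha subunit of the fibronectin receptor, stood at 94, 134 and 99.7 CPM and was highest where FN1 was lowest. ITGB6 stood at 73.3, 48.3 and 57.9 CPM. SDC4, a heparan sulfate proteoglycan that binds fibronectin, stood at 1205, 714 and 1154 CPM, the same order as FN1.

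The TGF-beta list held 18 ligands, receptors and SMAD genes, of which 15 were tested. Of these, 6 were lower than the control under both labels and 6 higher, beside 27 and 28.2 percent of all tested genes. The medians were -0.01 and 0.03. TGFBR1, the type I receptor, stood at 55.7, 74.8 and 94.4 CPM and SMAD6, an inhibitory SMAD, at 26.8, 14.8 and 21.2 CPM. TGFB2 stood at 9.05, 14.3 and 10 CPM and ENG, the co-receptor endoglin, at 9.7, 13.6 and 12.7 CPM.

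**Figure D5:**
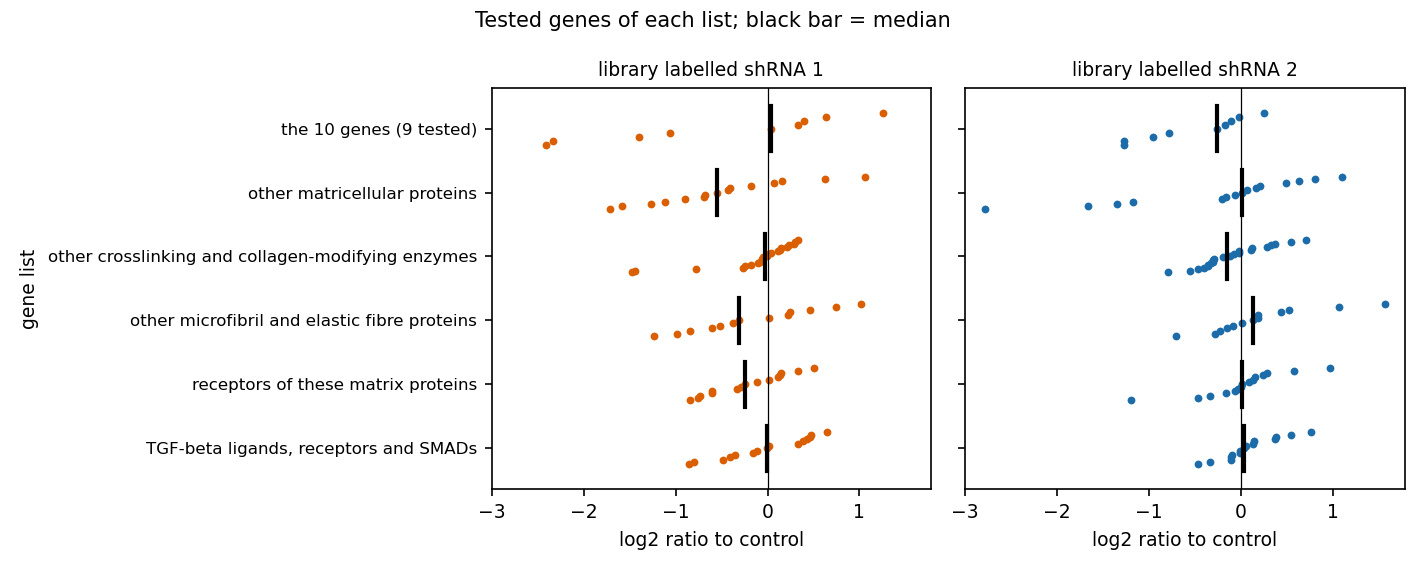
Log2 ratio to the control of each tested gene in 6 lists, for the libraries labelled shRNA 1 (left) and shRNA 2 (right); each point is 1 gene and the black bar the median of the list. The 10 genes, of which 9 were tested, spread from -2.41 to 1.26 with the label shRNA 1 and from -1.28 to 0.25 with the label shRNA 2.

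Among genes with a symbol and a mean of at least 10 CPM, the 5 whose pair of log2 ratios lay nearest to that of TNC were PRKX, CXCL8, AUTS2, GINM1 and BMP7, at distances of 0.158 to 0.355. CXCL8, an inflammatory chemokine, stood at 31.4, 13.6 and 13.1 CPM, and BMP7, a bone morphogenetic protein, at 29.6, 8.81 and 11.2 CPM. Nearest to FN1 were SPTLC2, RAB3D and BCL6, nearest to SPARC were LRATD1, NGFR and SLC1A3, and nearest to THBS1 were PNO1, PFAS and BOP1. The log2 ratios of SPARC rest on 19, 2 and 10 counts and depend on the prior count of 2, so its neighbours are uncertain. PNO1 and BOP1, both factors of ribosome assembly, stood at 37.9, 59.4 and 21.5 CPM and at 110, 172 and 61 CPM. Likeness here is the Euclidean distance between pairs of log2 ratios over 3 libraries, with 10316 genes searched (10317 for SPARC).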

How the data were processed

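The members and gene lists were chosen with earlier results of these data known. The deposited table holds raw counts of reads per gene for 3 libraries, made by the authors with featureCounts 1.6.4 on an hg38 annotation with the strand option 1, per the file headers. The submitters' processing notes instead list hg19, HTSeq and TopHat2. Each of 52179 versioned identifiers shared with GENCODE 29 had identical start and end there, so coordinates are in hg38. The exonic length in the table was used for levels per kilobase.

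Symbols were matched for 56558 of 60554 identifiers. Libraries were scaled by TMM (factors 0.993, 1 and 1), genes passing filterByExpr (17801) were tested, and edgeR 4.0.16 (R 4.3.3) compared both shRNA lines with the control, quasi-likelihood, two-sided, with Benjamini-Hochberg adjustment at 0.05. With 1 residual degree of freedom, the error behind p-values comes from how far the shRNA lines lie apart over all genes. The error of a single gene is moderated toward that of all genes, with 8.35 prior degrees of freedom. It is taken to hold for the single control as well. Log2 ratios use a prior count of 2. Intervals are exact Poisson or exact conditional at 95% and cover counting error only. DESeq2 1.42.0, other scalings, filters and prior counts were alternatives. The rule for named genes takes all members, SNORD12B, up to 4 genes per related list with at least 5 CPM in their highest library and the largest absolute mean log2 ratio, the 5 genes nearest to TNC and the 3 nearest to each of FN1, SPARC and THBS1. Markers of fibroblasts, blood vessels and squamous epithelium served to check the cells. EPCAM, CDH1, KRT5, KRT8, KRT18, KRT19, PKP1, HBB, KDR, PECAM1, PTPRC, SPP1, THBS2, the genes listed in brackets after counts, and the motifs were chosen after values were seen.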

Additional observations from a re-analysis of the deposited data

How the results depend on the processing

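The number of genes called moved with the test and the filter. The quasi-likelihood test called 0 higher and 0 lower. DESeq2 called 14 lower, the likelihood ratio test 2 higher and 36 lower, no filter beyond a count above 0 gave 4 and 37, and total counts alone or a minimum of 5 CPM gave 1 lower each. The numbers of members under the control, over it and under it by 2-fold or more with both labels (4, 2 and 2) were the same under the other scalings and prior counts, except that a prior count of 0.25 put SPARC among 3 genes at least 2-fold below. Leaving LOXL4 out with the filter left 1 above. With the library labelled shRNA 1 or that labelled shRNA 2 left out, a setting added after the data were seen, 4 to 8 members lay below, 2 to 6 above and 2 to 4 at least 2-fold below the control. Leaving out a shRNA line changed the sign of the mean log2 ratio for THBS1 (-0.07, range -0.78 to 0.64), TGFBI (0.14, -0.11 to 0.40), LOX (0.62, -0.02 to 1.26) and LOXL2 (0.04, -0.26 to 0.33). The cause was not tested. Counts of 24 or fewer limit SPARC, LOX and LOXL4. No paired analysis was possible because the control group has a single library and its label carries no replicate number.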
